A study of Mus musculus with 4 samples.

Results

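Retinoid metabolism was examined in mouse Leydig cells through 9 genes that make, reduce or bind retinal and retinoic acid: the short-chain oxidoreductases Rdh10, Rdh11 and Dhrs3, the retinal dehydrogenases Aldh1a1, Aldh1a2 and Aldh1a3 with the copy Aldh1a7, and the binding proteins Crabp1 and Crabp2. They were taken by symbol from the 55812 features of the deposited count table, and all 9 were found there under 1 Ensembl identifier each. Leydig cells are the testosterone-making cells of the testis, found outside its tubules. The cells were primary cultures, labelled as from a 6-month-old mouse, and RNA sequencing was done on 2 samples given Negative siRNA, a control small interfering RNA (here the control siRNA), and 2 given siRNA against Trps1, which encodes a repressor protein with a GATA-type zinc finger. For strain, siRNA dose and time of exposure the sources used here give nothing. Whether samples of 1 group came from separate cultures or animals is also not stated, so p-values measure the spread of these samples alone, and that spread may be technical.

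Retinoic acid is made from vitamin A in a pair of steps. Retinol is first oxidised to retinal, a reversible step run by Rdh10 in one direction and by reductases such as Dhrs3 and Rdh11 in the other, and retinal is then oxidised irreversibly by the ALDH1A enzymes. Retinoic acid binds RAR and RXR nuclear receptors, is carried in the cytosol by CRABP proteins and is removed by CYP26 hydroxylases. In the testis it drives spermatogonia to differentiate and germ cells to enter meiosis, and both Leydig and Sertoli cells carry ALDH1A enzymes.

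With Trps1 siRNA, the most abundant of these enzymes, Aldh1a1, differed by less than the spread between libraries, while the minor retinal dehydrogenases moved. Aldh1a2 rose 1.35-fold and Aldh1a3 rose 1.56-fold. Aldh1a7 fell to 0.862 and Rdh10 fell to 0.748 of the control level. Outside the 9 genes, Cyp26b1, which clears retinoic acid, rose 1.70-fold. Of the 9 genes, 7 passed the expression filter, 2 rose, 2 fell, 3 did not pass the test, and the 2 CRABP genes had too few reads to be tested. Calls are those of edgeR's quasi-likelihood test with a Benjamini-Hochberg adjusted p under 0.05 over 14701 tested genes, of which 1652 or 11.2% were called (5.24% higher and 6% lower). Without sample 2 of Trps1 siRNA the count over all genes was 871, and with DESeq2 it was 991. Of the 9 genes 5 had an unadjusted edgeR p under 0.05 (23.9% of all tested genes), DESeq2 called 3 (8.36% of all genes to which it gave an adjusted p) and limma voom called 4 (10.3%). The set was chosen with earlier results of these data known, so its own share of calls is a description only.

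The 4 libraries held 17844125 to 25852898 counted reads. Trps1 itself had 38.1 and 42.2 CPM (counts scaled to a common library size) under the control siRNA and 23.5 and 30.1 CPM under Trps1 siRNA, a fall to 0.671 of the control (edgeR adjusted p = 0.000351). Of 12 adult Leydig markers all were detected and 8 rose, with summed levels of 6198 and 6508 CPM in the controls and 8903 and 9212 CPM under Trps1 siRNA. All 13 macrophage markers were also detected and 8 fell, with sums of 3103, 3023, 2626 and 2068 CPM in the order Negative siRNA samples 1 and 2, then Trps1 siRNA samples 1 and 2. Of 10 stromal and progenitor markers 3 fell, with sums of 4535, 4913, 3832 and 4033 CPM in the same order. Ly6a alone made 2332, 2688, 1806 and 2014 CPM of these sums. The log2 fold change was below 0 for 9 of the 10 markers and above 0 for 1. Of 6 smooth muscle markers 2 fell, with sums of 94.1, 95.1, 59.0 and 62.8 CPM in that order. Of 8 Sertoli markers 4 were tested and 1 rose, with sums of 2869, 2732, 3065 and 2893 CPM that were nearly all Clu. For comparison, 5.24% of all tested genes rose and 6% fell. The part of the marker shifts in the results for the retinoid genes was not tested. In bulk RNA, fewer cells of a type and less RNA per cell cannot be told apart.

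**Figure D1:**
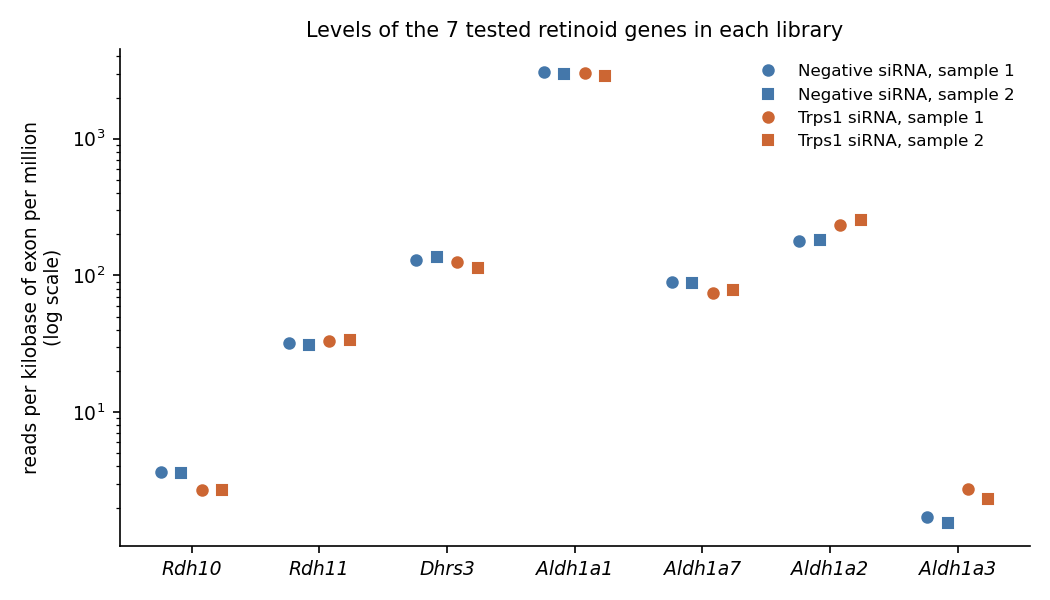
Level of each tested gene in each library, as RPKM (reads per kilobase of exon, scaled to library size) on a log axis, with 1 point per library. Aldh1a1 lies between 2869 and 3089 in the 4 libraries, above Aldh1a2 at 177 to 252, and Rdh10 and Aldh1a3 lie lowest.

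Per length, the 7 measurable genes spanned more than 3 orders on a log10 scale. In RPKM, Aldh1a1 had a mean of 3034 ± 76.9 under the control siRNA and 2959 ± 128 with Trps1 siRNA (SD, n = 2 per group). Aldh1a2 came next at 180 ± 3.95 in the controls, then Dhrs3 at a level of 133, Aldh1a7 at 88.4, Rdh11 at 31.7, Rdh10 at 3.62 and Aldh1a3 at 1.63. No 2 neighbours in this order overlapped in the control libraries. With Trps1 siRNA the order was the same, and Rdh10 at 2.71 and 2.71 lay between the 2 libraries of Aldh1a3 at 2.74 and 2.32, so that these last 2 genes no longer differed beyond their spread. The annotated exons of Aldh1a1 add up to 4937 bases over 6 transcripts, whereas the transcript with its longest coding part has 2358 bases. On the latter length Aldh1a1 stood 35.3 times above Aldh1a2 in the controls, against 16.8 times on the exon length. The order of the genes in the controls was the same on both. With Trps1 siRNA it was not, since on main transcript length the mean of Aldh1a3, 3.40, lay above that of Rdh10, 3.14. Rdh10 again lay between the 2 libraries of Aldh1a3, at 3.68 and 3.11.

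Rdh10 encodes the retinol dehydrogenase that makes most embryonic retinal. The gene (ENSMUSG00000025921, chromosome 1, 16105774 to 16133734, plus strand, GRCm38) had 305 and 383 reads under the control siRNA and 201 and 245 reads with Trps1 siRNA. Its levels were 15.17 and 14.96 CPM in the controls and 11.3 and 11.3 CPM under Trps1 siRNA. Both treated libraries lay below both controls, and edgeR estimated a log2 fold change of -0.42 ± 0.13 (standard error), adjusted p = 0.0294. The estimate barely moved between analyses, but the call was lost with DESeq2 (adjusted p = 0.120) and in each of the 4 edgeR fits that left out a single library (adjusted p = 0.0891 to 0.143).

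Dhrs3 encodes a retinal reductase, which returns retinal to retinol and thereby limits retinoic acid. Dhrs3 (ENSMUSG00000066026, chromosome 4, 144892827 to 144928209, plus strand) had 379 and 402 CPM under the control siRNA and 367 and 333 CPM under Trps1 siRNA. The groups did not overlap, which was also so for 52.2% of all tested genes. Its log2 fold change of -0.16 ± 0.06 did not pass the test (edgeR adjusted p = 0.105), and the 95% interval of the fold ran from 0.818 to 0.978. Without sample 1 of Trps1 siRNA the value was -0.23 and passed it (edgeR adjusted p = 0.0236). The lowest level of Dhrs3 was in sample 2 of Trps1 siRNA, the library with the lowest macrophage sum (2068 CPM). Between the controls the order was the opposite, since sample 2 had more Dhrs3 but a lower macrophage sum (3023 against 3103 CPM). A link between Dhrs3 and the macrophage genes was not tested.

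Rdh11 encodes another reductase of retinal, found in many tissues. Rdh11 (ENSMUSG00000066441, chromosome 12, 79174337 to 79192293, minus strand) had 112 and 107 CPM under the control siRNA and 114 and 116 CPM under Trps1 siRNA. The treated libraries were the higher ones by a small margin, with a log2 fold change of 0.07 ± 0.06 that did not pass the test (edgeR adjusted p = 0.487). The 95% interval of its fold ran from 0.969 to 1.14.

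Aldh1a1 oxidises retinal to retinoic acid and was the gene with the most reads in every library, at 1.43% to 1.52% of all counts. The gene (ENSMUSG00000053279) spans chromosome 19, 20492715 to 20643465, on the plus strand. Aldh1a1 had 15248 and 14712 CPM under the control siRNA and 15057 and 14163 CPM under Trps1 siRNA, from 268817 to 376589 reads per library. One treated library lay between the controls and the other below both, so the groups overlapped. The log2 fold change was -0.04 ± 0.05 (edgeR adjusted p = 0.710), with a 95% interval of the fold from 0.912 to 1.04. The means were 14980 ± 380 CPM and 14610 ± 632 CPM (SD, n = 2 per group), so their difference was below the spread of either group. The 9 genes together, of which Aldh1a1 is the bulk, made 16348, 15838, 16244 and 15367 CPM in the order of the libraries, and an exact permutation test of the group means gave a two-sided p of 0.667, where 2 against 2 allows no p below 0.333.

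Aldh1a7 is a rodent copy of Aldh1a1 whose enzyme is known to have little activity on retinal. It lies in tail-to-tail orientation with Aldh1a1 on chromosome 19, 20692953 to 20727562, minus strand (ENSMUSG00000024747). The coding parts of both genes have 1503 bases and are 91.6% identical, against 67.0% between Aldh1a1 and Aldh1a2 and 66.9% between Aldh1a1 and Aldh1a3. How far reads can be told apart between the copies depends on their length, on which the sources used here are silent. Of all 50-base windows in the Aldh1a7 transcript, 7.49% also occur in an Aldh1a1 transcript, but only 1 of 1967 windows of 100 bases does, and none of 150 bases. In the other direction, 6.54% of the 50-base windows of Aldh1a1 occur in Aldh1a7. Since Aldh1a1 had 268817 to 376589 reads per library and Aldh1a7 2731 to 4641, a small share of Aldh1a1 reads could weigh much in Aldh1a7. The share of Aldh1a7 counts that came from Aldh1a1 was not tested. None of the other 7 genes shared a 50-base window of its main transcript with any annotated gene. The longest identical coding stretch has 100 bases (coding positions 757 to 856 in both), and is shown because a read from within it fits either gene. It runs over exons 11 and 12 of the Aldh1a1 transcript (chromosome 19, 20629063 to 20630671) and exons 8 and 9 of Aldh1a7 (chromosome 19, 20708329 to 20709491), as follows.
Aldh1a1 and Aldh1a7, shared coding stretch: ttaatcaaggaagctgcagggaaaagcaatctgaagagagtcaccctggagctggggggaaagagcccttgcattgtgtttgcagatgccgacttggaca

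Aldh1a7 passed the test for a difference between the groups. It had 184 and 181 CPM under the control siRNA and 153 and 162 CPM under Trps1 siRNA, from 2731 to 4641 reads. Both treated libraries were below both controls, with a log2 fold change of -0.21 ± 0.06 (edgeR adjusted p = 0.0142). The call was lost without sample 1 or sample 2 of Negative siRNA (adjusted p = 0.109 and 0.0717) or sample 1 of Trps1 siRNA (adjusted p = 0.0936). Within each library, which removes the scaling between libraries, there were 1.21 and 1.23 Aldh1a7 counts per 100 Aldh1a1 counts in the controls and 1.016 and 1.143 with Trps1 siRNA. The groups did not overlap on this ratio, and the exact permutation test gave its smallest possible two-sided p of 0.333. With counts of both copies summed, which are nearly all those of Aldh1a1, the log2 fold change was -0.04 (edgeR adjusted p = 0.688).

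**Figure D2:**
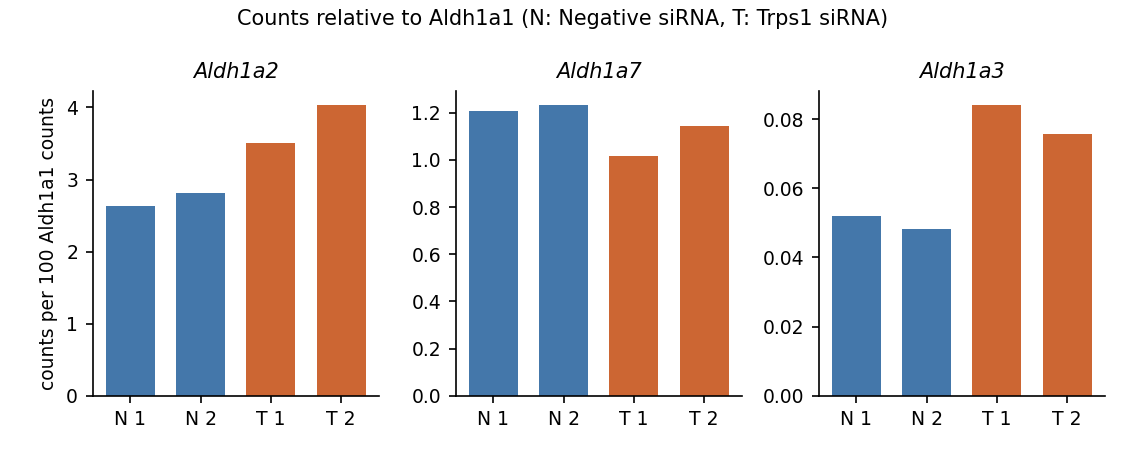
Counts of Aldh1a2, Aldh1a7 and Aldh1a3 per 100 Aldh1a1 counts, with 1 bar per library (N, Negative siRNA; T, Trps1 siRNA; samples 1 and 2) and axes that start at 0. The ratio for Aldh1a2 is 2.63 and 2.81 in the controls and 3.51 and 4.03 with Trps1 siRNA, and that for Aldh1a7 is lower in both treated libraries.

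Aldh1a2 is the main retinoic acid-making enzyme of the early embryo, and in the adult testis it is best known from germ cells. Aldh1a2 (ENSMUSG00000013584, chromosome 9, 71215789 to 71296243, plus strand) had 8069 and 10599 reads under the control siRNA and 9441 and 12418 reads with Trps1 siRNA. Its levels were 401 and 414 CPM in the controls and 529 and 571 CPM under Trps1 siRNA. Both treated libraries lay above both controls, by far more than the spread within either group. The log2 fold change was 0.43 ± 0.06 (edgeR adjusted p = 2.08e-05), with a 95% interval of the fold from 1.24 to 1.47, and the call held in all 12 alternatives. The authors' deposited table lists Aldh1a2 with a log2 fold change of 0.43 and an adjusted p of 7.13e-08. Of 9 germ cell markers only Zbtb16 and Dazl passed the expression filter, and the germ cell helicase Ddx4 had 0.0995, 0.0781, 0.280 and 0.368 CPM in the order of the libraries. The haploid germ cell genes Prm1, Prm2, Tnp1 and Acrv1 were at or near 0, with at most 0.249 CPM. Zbtb16, which is also expressed outside germ cells, had 34.2 and 31.5 CPM in the controls and 35.6 and 46.1 CPM under Trps1 siRNA, and passed the test with edgeR (adjusted p = 0.0423), while DESeq2 and limma voom each called 0 of the germ cell markers. It made most of the list's sum, which was 36.1, 33.0, 37.5 and 49.0 CPM, and the part of these markers in the result for Aldh1a2 was not tested.

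Aldh1a3 makes retinoic acid in the eye and nose of the embryo. Aldh1a3 (ENSMUSG00000015134, chromosome 7, 66390890 to 66427517, minus strand) was the lowest of the tested enzymes, with 159 and 182 reads under the control siRNA and 226 and 233 with Trps1 siRNA. Its levels were 7.91 and 7.11 CPM in the controls and 12.7 and 10.7 CPM under Trps1 siRNA. The treated libraries were again both higher, with a log2 fold change of 0.64 ± 0.15 (edgeR adjusted p = 0.00495) and a wide 95% interval of the fold, 1.26 to 1.92. The call was lost without sample 1 of Trps1 siRNA (0.52, adjusted p = 0.0677). The authors' deposited table gives 0.64 with an adjusted p of 0.0273, and of the 9 genes it lists only Aldh1a2 and Aldh1a3. As a share of the reads of the 4 genes named Aldh1a, Aldh1a1 made 96.3% and 96.1% in the controls and 95.6% and 95.01% with Trps1 siRNA, so the minor enzymes stayed a small part of the total.

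**Figure D3:**
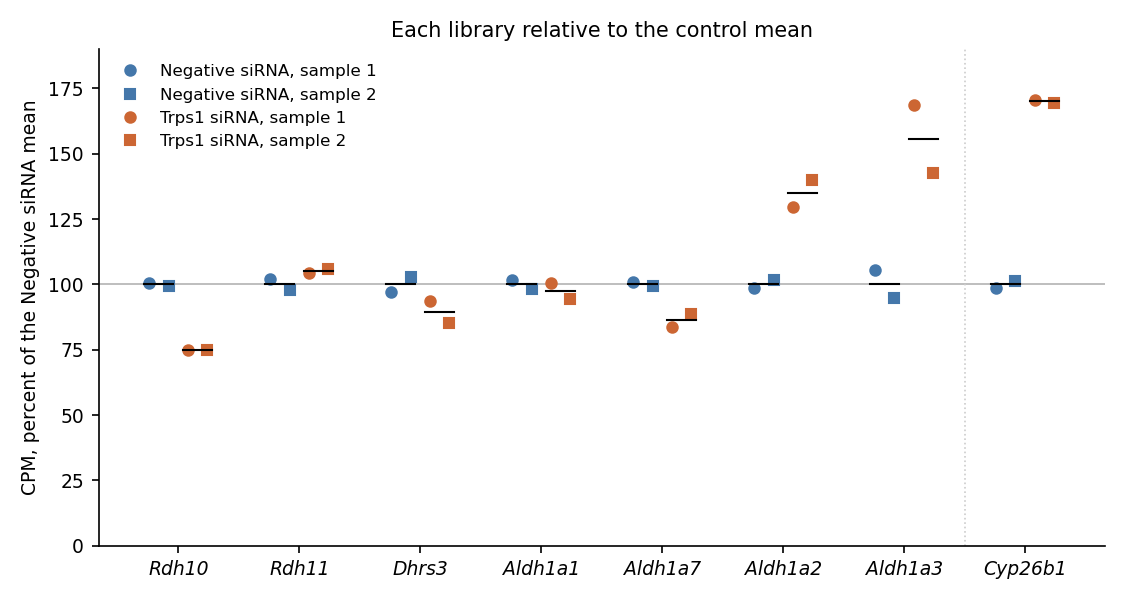
CPM of each gene in each library as a percent of the Negative siRNA mean, with bars at the group means, for the 7 tested genes and, right of the dotted line, Cyp26b1. Both treated libraries lie near 75% for Rdh10 and above 125% for Aldh1a2 and Aldh1a3, while the points of Aldh1a1 overlap around 100%.

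The start regions of the ALDH1A genes are shown because the copies Aldh1a1 and Aldh1a7 share much of this sequence and Aldh1a2 carries one of its elements. RefSeq start windows (250 bases before to 50 after each start, GRCm38.p6) matched 6 of the 9 symbols, Aldh1a1, Aldh1a2, Aldh1a7, Crabp1, Rdh11 and Dhrs3. Each is printed 5′ to 3′ on the strand of the gene. Capitals mark the octamer ATGCAAAT, the recognition sequence of POU factors, and in the copies also the 6 bases from position 219, counted from 1 at the 5′ end of the window.
Aldh1a1, chr19:20601718-20602017, plus strand: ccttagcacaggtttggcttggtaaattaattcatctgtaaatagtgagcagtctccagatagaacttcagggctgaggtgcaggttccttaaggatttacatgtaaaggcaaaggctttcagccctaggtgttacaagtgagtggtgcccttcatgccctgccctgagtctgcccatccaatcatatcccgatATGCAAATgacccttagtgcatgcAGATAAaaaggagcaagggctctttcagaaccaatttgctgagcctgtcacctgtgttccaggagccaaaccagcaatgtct
Aldh1a7, chr19:20727507-20727806, minus strand: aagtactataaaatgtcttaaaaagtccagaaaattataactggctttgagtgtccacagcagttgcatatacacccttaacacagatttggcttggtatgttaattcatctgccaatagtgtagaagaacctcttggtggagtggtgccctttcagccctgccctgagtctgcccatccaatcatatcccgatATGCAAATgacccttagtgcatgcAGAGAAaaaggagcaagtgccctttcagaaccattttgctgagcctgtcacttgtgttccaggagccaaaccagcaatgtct
Aldh1a2, chr9:71215539-71215838, plus strand: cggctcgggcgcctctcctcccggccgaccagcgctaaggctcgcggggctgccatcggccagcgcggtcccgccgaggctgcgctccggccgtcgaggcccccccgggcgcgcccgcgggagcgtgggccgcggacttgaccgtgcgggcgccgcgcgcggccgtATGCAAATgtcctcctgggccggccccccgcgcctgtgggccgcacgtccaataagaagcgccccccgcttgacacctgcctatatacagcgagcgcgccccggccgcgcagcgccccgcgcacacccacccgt

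The last 130 bases of the Aldh1a1 and Aldh1a7 windows align without a gap and are 96.2% identical, with 5 substitutions from Aldh1a1 to Aldh1a7 (T222G, G236T, T239C, A252T and C270T). The longest run they share has 65 bases, positions 157 to 221, and includes the octamer, which begins 56 bases before the start of both. Over the whole window their identity was 70.2% with gaps. The substitution T222G falls within the capitalised hexamer and turns a GATA-type match in Aldh1a1 into none in Aldh1a7. The motif searched was AGATAA on both strands, with T also allowed as its first base and G as its last. Another match in the Aldh1a1 window begins at position 58, and the Aldh1a7 and Aldh1a2 windows hold none. The window of the other RefSeq start of Aldh1a1, not printed here, holds 1 match on the opposite strand. Such a match is common, occurring in 29.8% of all 32851 windows in the table, and says nothing by itself of binding. The octamer occurs in 1.74% of all windows and was noticed in the Aldh1a1 sequence before it was searched elsewhere. In the Aldh1a2 window it begins 84 bases before the start. It was not in the windows of Crabp1, Rdh11 or Dhrs3, nor in that of the other RefSeq start of Aldh1a1. No window of the 6 genes held a pair of retinoic acid receptor half-sites (AGGTCA on both strands, with G also allowed as its first base and T at position 3) as a direct repeat spaced by 5 or 2 bases, found in 0.0974% and 0.268% of all windows, which covers these windows only. Gene counts do not tell which start is used.

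The cellular retinoic acid-binding proteins were nearly absent. Crabp2 carries retinoic acid to its receptors and Crabp1 is associated with its breakdown. Crabp1 (ENSMUSG00000032291, chromosome 9, 54764748 to 54773110, plus strand) had 0 and 1 read under the control siRNA and 1 and 0 reads with Trps1 siRNA. Crabp2 (ENSMUSG00000004885, chromosome 3, 87948666 to 87953376, plus strand) had 0 and 2 reads in the controls and 1 and 0 reads with Trps1 siRNA. Both genes had 0 reads in sample 1 of Negative siRNA and sample 2 of Trps1 siRNA. There a count of 0 allows up to 3 reads, for counting error only. That is 0.149 and 0.139 CPM of the unscaled library totals. Neither gene was tested, no difference between groups was detectable, and both levels were below that of the least abundant enzyme, Aldh1a3.

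Outside the set, 6 lists with 73 further genes were read, of which 53 were tested, 9 rose and 4 fell. The shares over all tested genes were 5.24% higher and 6% lower. These lists cover the rest of the pathway and also the wider aldehyde dehydrogenase family, most of which acts on other aldehydes. That family makes up 15 of the genes, with 14 tested, 2 that rose and 2 that fell. Among the other oxidoreductases of retinol and retinal, 9 of 17 were tested, 3 rose and none fell, with a median log2 fold change of 0.32 against 0.002 over all genes tested. Adh1, an alcohol dehydrogenase that also oxidises retinol, had 131 and 148 CPM under the control siRNA and 167 and 181 CPM under Trps1 siRNA, a 1.25-fold rise (edgeR adjusted p = 0.00134). Rdh13, a mitochondrial reductase, rose 1.31-fold from a mean of 17.9 to 23.4 CPM (edgeR adjusted p = 0.0149). Rdh1, a retinol dehydrogenase, also passed the test, but on 11, 13, 43 and 28 reads in the order of the libraries, and its exons share 464 bases with the neighbouring family member Rdh16f1, which makes its counts uncertain. Each call could be lost when 1 library was left out: that of Adh1 without sample 1 of Negative siRNA (adjusted p = 0.0713), that of Rdh13 without that library or without sample 2 of Trps1 siRNA (0.0702 and 0.108), and that of Rdh1 without sample 1 of Trps1 siRNA (0.218). DESeq2 called 1 of the 3, Adh1, and not Rdh13 (adjusted p = 0.0608).

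In uptake, binding and storage, 10 of 14 genes were tested, 1 rose and 1 fell (5.24% and 6% of all tested genes). The median log2 fold change of this list was -0.19. Scarb1, a lipoprotein receptor that takes up cholesterol esters in steroid-making cells and carotenoids in the gut, rose 1.26-fold, from 467 and 477 CPM to 597 and 596 CPM (edgeR adjusted p = 0.000286). Lrat, which esterifies retinol for storage, had 5.47 and 5.59 CPM in the controls and 4.26 and 3.59 CPM under Trps1 siRNA, and did not pass the test. Stra6, the cell-surface receptor for retinol-binding protein, had 1 to 4 reads per library and was not tested.

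Of the 3 hydroxylases that break down retinoic acid only Cyp26b1 was expressed. Cyp26b1 had 434 and 566 reads under the control siRNA and 666 and 805 with Trps1 siRNA. Its levels were 21.6 and 22.1 CPM in the controls and 37.3 and 37.0 CPM under Trps1 siRNA, with hardly any spread within a group. The log2 fold change of 0.77 ± 0.09 (edgeR adjusted p = 1.25e-06) kept its call in all 12 alternatives, with values from 0.75 to 0.78. In the authors' deposited table it is 0.77 with an adjusted p of 2.41e-08. Cyp26a1 had no read in any library, and Cyp26c1 had a single read.

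Of 14 receptors and cofactors 13 were tested and none was called. The exception, Rxrg, had 6 and 5 reads in the controls and 1 and 3 reads with Trps1 siRNA, too few to be tested. Rxra had 157 and 153 CPM in the controls and 166 and 160 CPM under Trps1 siRNA, Rara had 59.6 and 62.5 against 62.0 and 65.1 CPM, and Rarg had 26.4 and 27.1 against 27.1 and 29.7 CPM. Rxrb lay between 49.3 and 51.4 CPM in the 4 libraries. Rarb, itself a classical target of retinoic acid, had 11 to 20 reads per library. Its exons share 2020 bases with Gm48162 and Top2b on the opposite strand, and whether counting used strand is not known. Of the 13 tested genes edgeR, DESeq2 and limma voom each called 0. An unadjusted edgeR p under 0.05 was found for 2 of them, and for 23.9% of all tested genes. Their log2 fold changes ran from -0.17 to 0.23.

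The genes listed as retinoic acid targets did not move one way. Of 16 genes 10 were tested, 3 rose and 2 fell (5.24% and 6% of all tested genes), with a median log2 fold change of 0.04. The list holds Cyp26b1, described above, as the gene that rose most. Rarres1, a membrane protein first found as induced by a synthetic retinoid, had 635 and 637 CPM under the control siRNA and 764 and 802 CPM under Trps1 siRNA, a 1.23-fold rise (edgeR adjusted p = 0.00119). Rai14, an actin-binding protein induced by retinoic acid, rose 1.24-fold (edgeR adjusted p = 0.00239). Rarres2, which encodes the chemokine chemerin, fell from 53.9 and 61.0 CPM to 42.8 and 41.9 CPM (log2 fold change -0.44 ± 0.08, edgeR adjusted p = 0.000351). Rarres2 shares 892 exon bases with Lrrc61 on the opposite strand, and without knowing whether counting used strand the reads of these genes cannot be told apart.

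**Figure D4:**
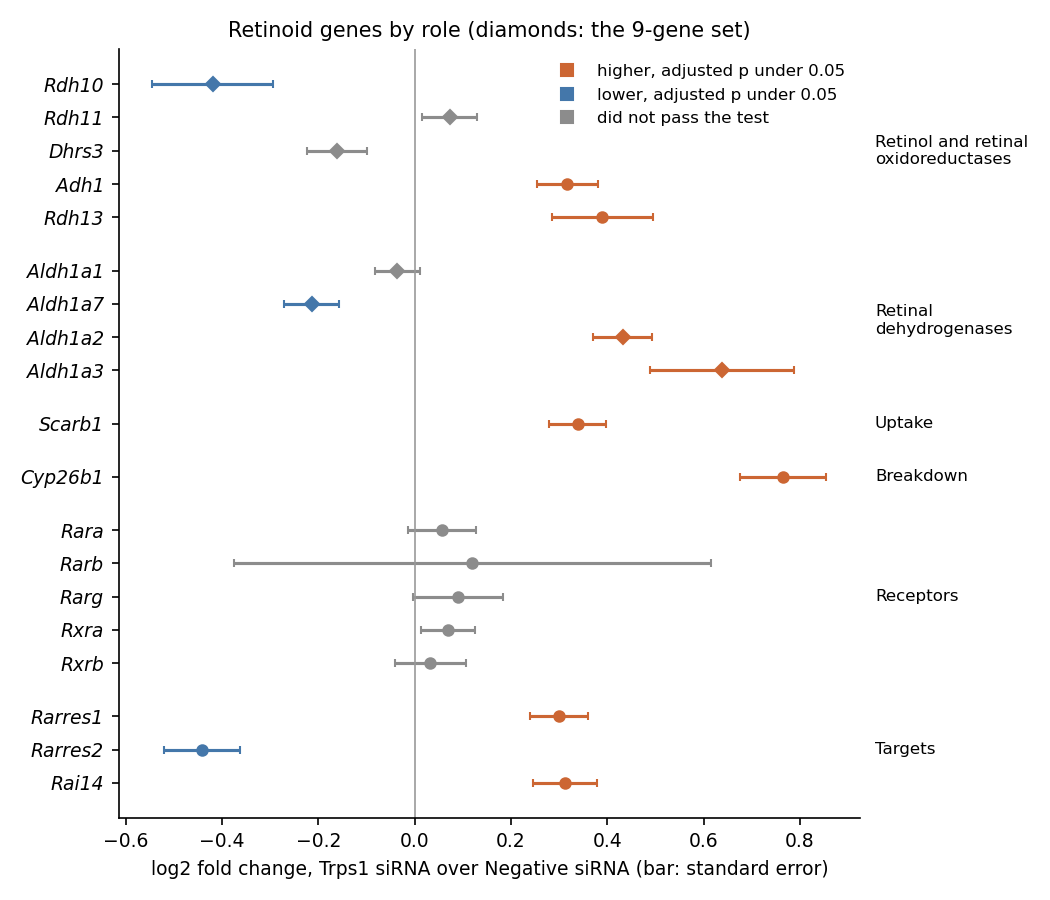
Log2 fold change of 7 genes of the set and of selected other retinoid genes, Trps1 siRNA over Negative siRNA, with its standard error, grouped by role, with colours for the result of edgeR's test. Among the genes drawn, Cyp26b1 and Aldh1a3 lie farthest right at 0.77 and 0.64, Rdh10 and Rarres2 farthest left at -0.42 and -0.44, and the receptors lie close to 0, with a wide bar for Rarb. Rdh1 and Lrat are not drawn.

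The calls within the set differed in how many alternatives kept them. Leaving out a library raised the standard error of Rdh10 from 0.126 to at least 0.156, while its estimate changed little. Under the alternatives with a value for each gene, the log2 fold change of Aldh1a2 ranged from 0.37 to 0.49, that of Aldh1a3 from 0.52 to 0.75, that of Aldh1a7 from -0.26 to -0.18 and that of Rdh10 from -0.43 to -0.41, with no change of sign. Aldh1a2 was called in 12 of 12, Aldh1a3 in 11, Aldh1a7 in 9 and Rdh10 in 7.

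**Figure D5:**
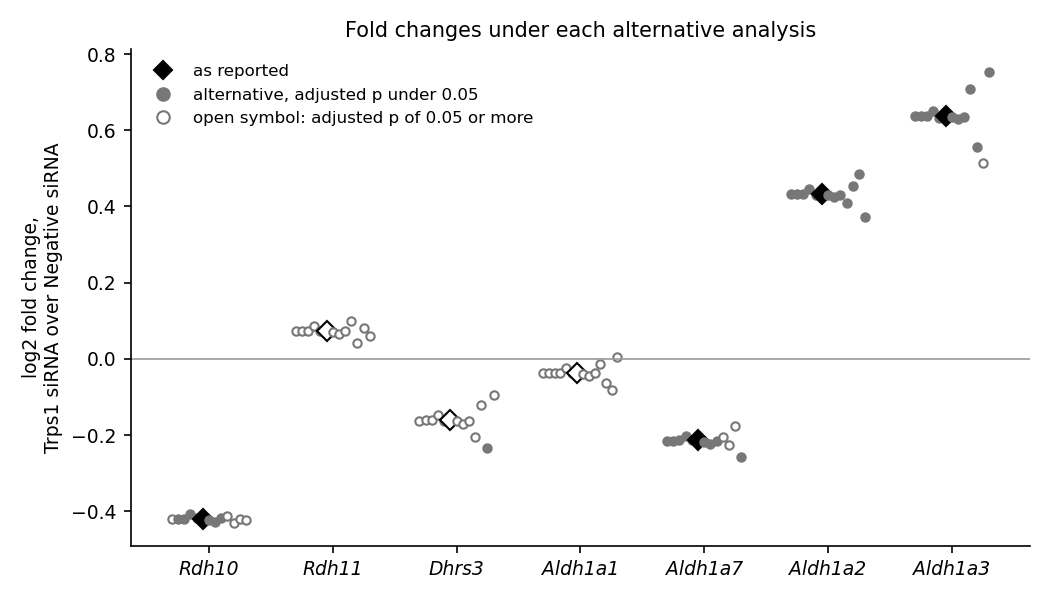
Log2 fold change of the 7 tested genes as reported (diamonds) and under each alternative analysis (circles), filled where the adjusted p is under 0.05. The circles of Aldh1a2 are all filled, those of Rdh10 sit together near -0.42 but 5 are open, and 1 circle of Aldh1a1 lies just above 0.

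By the distance between mean-centred log2 CPM values over the 4 libraries, the 5 genes whose pattern lay nearest to that of Aldh1a1 were Tmub2, Ckap2l, Degs1, Ube2f and Gps1, at distances of 0.0044 to 0.013. With 4 libraries this is a description of small movements only: Tmub2, the nearest, had 56.5, 54.3, 55.7 and 52.4 CPM in the order of the libraries.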

How the data were processed

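Total RNA of 4 samples of primary mouse Leydig cells was sequenced by the study's authors. They deposited raw read counts per gene, made with HISAT2 and featureCounts on GRCm38 (mm10) per the submitters' processing notes; the sources used here give no versions, strand setting, read length or handling of reads with several matches. A second deposited table holds the authors' own comparison of 780 genes, with the mean signal per group, log2 fold changes, p-values and adjusted p-values; its test is not given.

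Samples were grouped by their titles. Symbols, positions and exon lengths came from GENCODE M21 (GRCm38), matched on the Ensembl identifier for 55141 of 55812 features, and start windows from RefSeq (GRCm38.p6). Counts were fitted with edgeR 4.0.16 (R 4.3.3; filterByExpr with a minimum count of 10, TMM, glmQLFit with robust=TRUE, glmQLFTest; group only, 2 residual degrees of freedom), and checked on simulated counts. CPM used TMM-scaled library sizes. Replicates differed by more than sampling noise (mean chi-square per gene 7.60 and 4.61).

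The members and gene lists were chosen with earlier results of these data known. The genes named were all 9 members, Trps1, up to 4 called genes per retinoid list with the smallest p, Cyp26b1, Stra6, Rara, Rarb, Rarg, Rxra and Rxrb, and the 5 nearest to Aldh1a1 with a mean of at least 5 CPM; Lrat, Rxrg, Aldh2, Cyp26a1, Cyp26c1 and the markers named were chosen after their values were seen. A gene that the rule also names is not reported here. Log2 CPM used a prior count of 3. Alternatives were RLE factors, library totals, DESeq2 1.42.0, no filter, a minimum mean of 5 CPM, no robust estimation, voom of limma 3.58.1, a replicate block, each sample left out, and the copies summed. The length of the main transcript was added after seeing the data.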

Additional observations from a re-analysis of the deposited data

How the results depend on the processing

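The count of genes called over the whole table, 1652, was 991 with DESeq2, and the fits that left out 1 sample gave 871 (without sample 2 of Trps1 siRNA) to 1675. The count of called members was 4, and it was lower in each fit that left out 1 sample. Aldh1a2 kept its call in all of these. Without either control sample the calls of Aldh1a7 and Rdh10 were lost. Without sample 1 of Trps1 siRNA those of Aldh1a3, Aldh1a7 and Rdh10 were lost, while Dhrs3 (log2 fold change -0.23) was called. DESeq2 called 3. With the copies summed 3 were also called, but there Aldh1a7 had no row of its own, so its call could not be kept. In the 6 further lists, which include the wider aldehyde dehydrogenase family, 13 genes were called, and 9 with DESeq2. The difference in the summed CPM of the 9 members, -288, lay between -726 and 151 with 1 sample left out, and was above 0 only without sample 2 of Trps1 siRNA. With 1 sample left out, the log2 fold change of Aldh1a1 ran from -0.0824 to 0.0044, the latter without sample 2 of Trps1 siRNA. That of Rarb ran from -0.0945, without sample 1 of Negative siRNA, to 0.415. The cause was not tested. Where a sample was left out, the lone sample of its group was assumed to vary like the other group. With the replicate block, 2285 genes, 4 members and 15 genes of the further lists were called. Nothing in the labels ties samples of the same number, and the correlation of same-numbered deviations over genes was 0.017. With 2 samples per group this value cannot settle whether they were paired. On the main transcript's length, control RPKM moved to 6353 for Aldh1a1, 2.18 for Aldh1a3, 4.20 for Rdh10, 33.5 for Rdh11 and 167 for Dhrs3, with no change in their order. Depth limits the CRABP genes, Rarb and Rdh1.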

Other observations

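The wider aldehyde dehydrogenase family, whose other members oxidise aldehydes of lipids, amino acids and ethanol, was tested in 14 of 15 genes. Of these 2 rose and 2 fell (5.24% and 6% of all tested genes), with a median log2 fold change of 0.002. Aldh1b1, a mitochondrial enzyme close to the ALDH1A group, had 82.4 and 84.5 CPM under the control siRNA and 104 and 112 CPM under Trps1 siRNA, a 1.29-fold rise (edgeR adjusted p = 0.000125). Aldh3a2, which oxidises fatty aldehydes, fell from 150 and 141 CPM to 117 and 109 CPM (log2 fold change -0.37 ± 0.06, edgeR adjusted p = 9.23e-05). Aldh1l2, a mitochondrial folate enzyme, rose 1.36-fold and Aldh5a1, which clears a product of GABA, fell to 0.719 of the control (edgeR adjusted p = 0.00802 and 0.0226). They share 1056 and 999 exon bases with genes on the opposite strand, and both calls were lost without sample 2 of Trps1 siRNA (edgeR adjusted p = 0.0728 and 0.175). The call of Aldh1l2 was also lost without sample 2 of Negative siRNA (edgeR adjusted p = 0.0713), and that of Aldh5a1 without sample 1 of Negative siRNA (edgeR adjusted p = 0.237) and with DESeq2 (adjusted p = 0.0951). Aldh2, the enzyme of ethanol metabolism, had 1137 and 1050 CPM in the controls and 1246 and 1145 CPM under Trps1 siRNA and did not pass the test.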
